A study of Mus musculus with 24 samples.

Results

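The 10 genes described here encode the D-type cyclins (Ccnd1, Ccnd2 and Ccnd3), the Cip/Kip inhibitors of cyclin-dependent kinases (Cdkn1a, Cdkn1b and Cdkn1c), the INK4 inhibitors (Cdkn2b, Cdkn2c and Cdkn2d) and the retinoblastoma protein (Rb1). They were taken from the deposited table by symbol alone, and all 10 were found among its 14912 genes. All 10 also passed the filter on low values, a mean of at least 0.1 over the samples, which left 14026 genes for testing. Left ventricles came from male wild-type C57BL/6J mice whose age is not given in the sources used here. The hypertensive-LVH group (12 mice, left ventricular hypertrophy) received the pressor hormone angiotensin II (ANG II) at 1500 ng/kg/min from an implanted osmotic pump for 7 days, and the control group (12 mice) received saline for the same time. The model is thus 1 dose and 1 time point in 1 sex, and each sample is bulk tissue holding every cell type of the ventricle wall.

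Passage from G1 into S phase depends on this group of genes. D-type cyclins bind and activate Cdk4 and Cdk6, which phosphorylate the retinoblastoma protein and so release E2F transcription factors, the activators of genes for DNA replication. INK4 proteins block Cdk4 and Cdk6 directly, whereas Cip/Kip proteins bind cyclin and kinase together and also inhibit Cdk2. Adult cardiomyocytes hardly divide, while fibroblasts, endothelial cells and macrophages of the heart can, so that in bulk tissue the RNA of these genes comes from dividing and non-dividing cells alike.

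Values are called adjusted FPKM throughout. FPKM relates the fragments of a gene to transcript length and to the mapped fragments of the sample, and is thus a level per length. The deposited FPKM had been shifted and scaled gene by gene in 4 sets of 6 samples. By sample number, each set holds 3 neighbouring numbers from both groups (1 to 3, then 4 to 6, 7 to 9 and lastly 10 to 12). The scale factors of the 10 genes ranged from 0.668 to 1.66 over genes and sets, and offsets are unknown, so levels of different genes set side by side are adjusted values and not plain FPKM. The adjustment left 2741 negative values (0.766%) in the table, of which 0 belong to the 10 genes. Read depth is unknown. In samples 4 to 6 both groups stood apart from the other sets. The summed level of 8 fibroblast markers averaged 102 adjusted FPKM in these controls against 951, 873 and 924 in the other sets of controls. In hypertensive-LVH it averaged 2085 in samples 4 to 6 against 1128, 1251 and 1198. Results that rest on samples 4 to 6 are given with and without them. Whether these gaps were present before the adjustment is not known, because the offset of a set could not be recovered. Each set was shifted as a whole, so levels of 1 group in different sets cannot tell which group stood apart.

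Of the 10 genes, 1 fell and 2 rose in the hypertensive-LVH group by limma on the adjusted values. Cdkn1c (p57), an imprinted Cip/Kip gene, fell to 43.4% of its control mean. Cdkn1a (p21), the Cip/Kip gene induced by p53, rose to 1.82 times its control mean, but not in each set of samples. Cdkn2d (p19), an INK4 inhibitor, rose by a smaller amount to 1.19 times, and also not in each set. Under 13 alternative settings the call of Cdkn1a was lost in 3 and that of Cdkn2d in 4. The 3 D-type cyclins, Cdkn1b, Cdkn2b, Cdkn2c and Rb1 did not pass the test. These calls are from limma on log2(adjusted FPKM + 1), with p-values adjusted by Benjamini-Hochberg over all 14026 genes and an adjusted p under 0.05 required. Adding 1 understates the fold changes of genes with low values, so log2 fold changes of low and high genes cannot be ranked against each other. Among all tested genes 20.9% were called higher and 12.6% lower by that rule, and 5.92% met the criteria for a differentially expressed gene (DEG), which add an absolute log2 fold change over 0.5. Cdkn1a and Cdkn1c were the 2 DEGs among the 10 genes. With quantile normalization the split of all calls turned from 2928 higher and 1769 lower to 1928 higher and 2916 lower. The median over all genes went from 0.05 to -0.01 (log2 fold change). The adjustment of the values set a group difference aside and added it back, as described below. That step is not allowed for in limma, whose p-values may be too small. On values with the scaling undone, an exact permutation test within the sets passed Cdkn1c alone of the 10 genes (adjusted p = 0.00368). In that test the adjusted p was 0.134 for Cdkn1a and 0.131 for Cdkn2d.

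**Figure D1:**
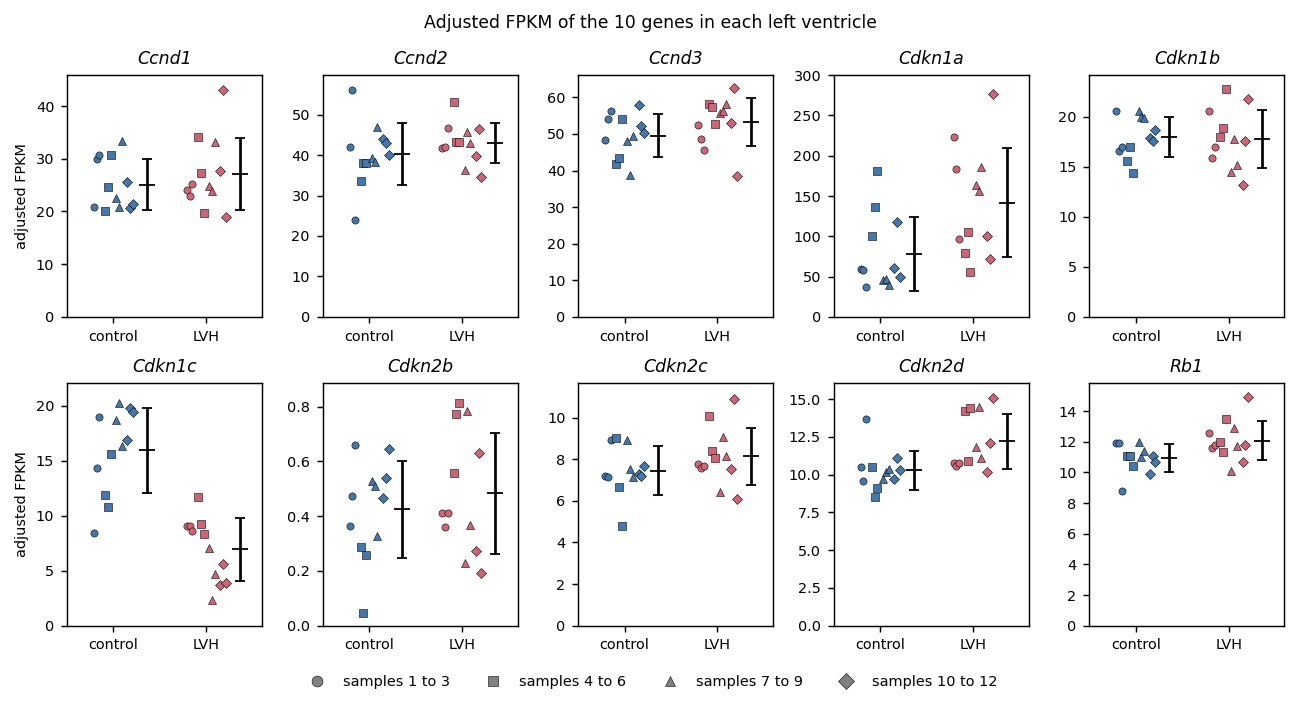
Adjusted FPKM (y axis, from 0) of each of the 10 genes in the 12 control and 12 hypertensive-LVH (LVH) samples. Each point is 1 ventricle, its shape gives the set of samples, and the bar beside each group gives the mean ± SD. Cdkn1c lies lower in LVH, with 7 samples under the lowest control. The mean of Cdkn1a is higher in LVH except in samples 4 to 6, and in samples 10 to 12 its groups overlap.

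The 10 genes spanned a wide range of adjusted levels. Averaged over the 24 samples the order was Cdkn1a (110 adjusted FPKM), Ccnd3 (51.4), Ccnd2 (41.6), Ccnd1 (26.1), Cdkn1b (17.9), Rb1 (11.5), Cdkn1c (11.4), Cdkn2d (11.2), Cdkn2c (7.80) and Cdkn2b (0.455). Most neighbours in this order kept their places sample by sample. Cdkn1b lay above Rb1 in all 24 samples, Cdkn2d above Cdkn2c in all 24, and Ccnd2 above Ccnd1 in 23. The places of Cdkn1c and Cdkn1a depended on the group. Rb1 lay above Cdkn1c in 12 of 12 hypertensive-LVH samples and in 2 of 12 controls, and Cdkn1c lay above Cdkn2d in 0 hypertensive-LVH samples and in 11 controls. Cdkn1a exceeded Ccnd3 in 12 hypertensive-LVH samples and in 8 controls.

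Cdkn1c had the smallest adjusted p of the 10 genes. Its gene lies on chromosome 7 at 143458339 to 143461050, minus strand, in the GRCm38 build (GENCODE vM21, as for all positions below). The lowest, median and highest values were 2.29, 7.70 and 11.7 adjusted FPKM in the hypertensive-LVH group and 8.47, 16.6 and 20.3 in the control group. All 12 hypertensive-LVH samples lay below the control median and 10 of 12 controls lay above the highest hypertensive-LVH sample, although the ranges overlapped. The means were 6.93 ± 2.87 and 16.0 ± 3.88 (SD, n = 12 each). The log2 fold change was -1.16 ± 0.19 (SE, 95% interval -1.55 to -0.77, limma adjusted p = 7.49e-05).

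Within the sets, the fall of Cdkn1c was present each time but differed in size. In samples 1 to 3 the hypertensive-LVH values were 9.03, 9.06 and 8.65 adjusted FPKM and the control values 8.47, 14.3 and 19.0. In samples 4 to 6 they were 11.7, 9.25 and 8.38 against 11.9, 10.8 and 15.6. These 2 sets had overlapping groups and log2 differences of -0.52 and -0.35. In samples 7 to 9 the hypertensive-LVH values were 7.02, 2.29 and 4.68 and the control values 18.7, 20.3 and 16.3. In samples 10 to 12 they were 3.67, 5.61 and 3.86 against 16.9, 19.8 and 19.4. In both of these sets every hypertensive-LVH sample was below every control, with log2 differences of -1.87 and -1.89. Groups without overlap were common over all tested genes, with shares of 16.8%, 47.6%, 27% and 21% in the order of the sets, and among the 10 genes there were 1, 5, 5 and 1. The F test for an interaction of group and set gave an adjusted p of 0.0108 in limma (0.0398 on values without the log), so that the size of the difference varied between the sets beyond the spread of the samples. Of all tested genes, 7.49% passed this test, and Cdkn1c and Cdkn1a were the 2 that passed among the 10.

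A second test exchanged the group labels within the sets only. This exact permutation test, two-sided over all 160000 relabelings, gave a mean difference for Cdkn1c of -9.03 adjusted FPKM with an adjusted p of 0.00208. The test called 27.4% of all tested genes. Among the 10 genes it called 2, Cdkn1c and Cdkn2d. The scaling of each set could be undone for all 10 genes from the spacing of their values, without the offset of the set. In the model that fitted, 1 group difference per gene, the same in all sets, was set aside, the remainder was scaled, and that difference was added back unscaled, so that the adjustment also moved the group difference within a set. The group labels thus entered the deposited values, on which the p-values of the permutation test are approximate. For Ccnd2 the difference added back was 8.50 FPKM. Its difference in samples 7 to 9 was 3.49 FPKM before and 0.209 after the adjustment. On these values before the adjustment, which called 28.3% of the 12932 genes with a solution, Cdkn1c differed by -4.26, -3.30, -13.2 and -15.2 FPKM in the 4 sets in their order. The mean difference before the adjustment was -8.99 FPKM with an adjusted p of 0.00368 in the exact permutation test, and Cdkn1c was the 1 gene of the 10 that passed.

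Cdkn1a had the highest level of the 10 genes and the widest spread. It lies on chromosome 17 at 29090976 to 29100727, plus strand. The lowest, median and highest values were 55.9, 131 and 277 adjusted FPKM in the hypertensive-LVH group and 37.5, 59.0 and 181 in the control group. Of the hypertensive-LVH samples, 11 of 12 lay above the control median and 4 lay above the highest control, while 5 controls lay below the lowest hypertensive-LVH sample. The means were 142 ± 67.8 and 77.8 ± 45.8 (SD, n = 12 each), a coefficient of variation of 47.8% and 58.9%. The log2 fold change was 0.89 ± 0.28 (SE, 95% interval 0.32 to 1.46, limma adjusted p = 0.0158).

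The direction of Cdkn1a was not the same in all sets. In samples 1 to 3 the hypertensive-LVH values were 223, 184 and 97.0 adjusted FPKM against 59.5, 58.5 and 37.5 in the controls. In samples 7 to 9 they were 164, 156 and 186 against 46.3, 46.8 and 39.0. The groups did not overlap in these sets, as in 16.8% and 27% of all tested genes, and the log2 differences were 1.63 and 1.91. In samples 10 to 12 they were 100, 72.0 and 277 against 61.0, 118 and 49.0, with overlap and a log2 difference of 0.83. In samples 4 to 6 the order turned, with 78.8, 106 and 55.9 against 100, 137 and 181 and a log2 difference of -0.79. These 3 controls were among the 4 highest of the control group. The hypertensive-LVH mean of this set was 80.3 adjusted FPKM, against 168, 169 and 150 in the other sets. Offsets of the sets are unknown, so which group of samples 4 to 6 stood apart cannot be told. Fibroblast marker sums of this set were low in control and high in hypertensive-LVH, and the part of that in the result was not tested. Without samples 4 to 6 the log2 fold change was 1.45 (limma adjusted p = 0.000525), without samples 1 to 3 it was 0.65 (adjusted p = 0.144) and without samples 7 to 9 it was 0.55 (adjusted p = 0.204).

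The interaction of group and set for Cdkn1a had an adjusted p of 0.0164 on the log2 scale and 0.125 on the values as deposited. With labels exchanged within the sets, Cdkn1a differed by 63.9 adjusted FPKM, with an exact permutation p of 0.0205 that became 0.066 after adjustment over all genes (0.0481 on the log2 scale). Before the adjustment of the values the differences in the 4 sets were 129, -68.3, 94.7 and 84.4 FPKM, and their mean of 60.1 had an adjusted p of 0.134 in the exact permutation test. The turned sign in samples 4 to 6 was thus also present on the values with the scaling undone. Over all 24 samples Cdkn1a passed limma, and it passed the exact test within the sets on the log2 scale but not on the values as deposited. With samples 4 to 6 left out it passed that test on the deposited values as well (adjusted p = 0.0185, exact permutation), and without any other set it did not (adjusted p = 0.137 to 0.326).

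**Figure D2:**
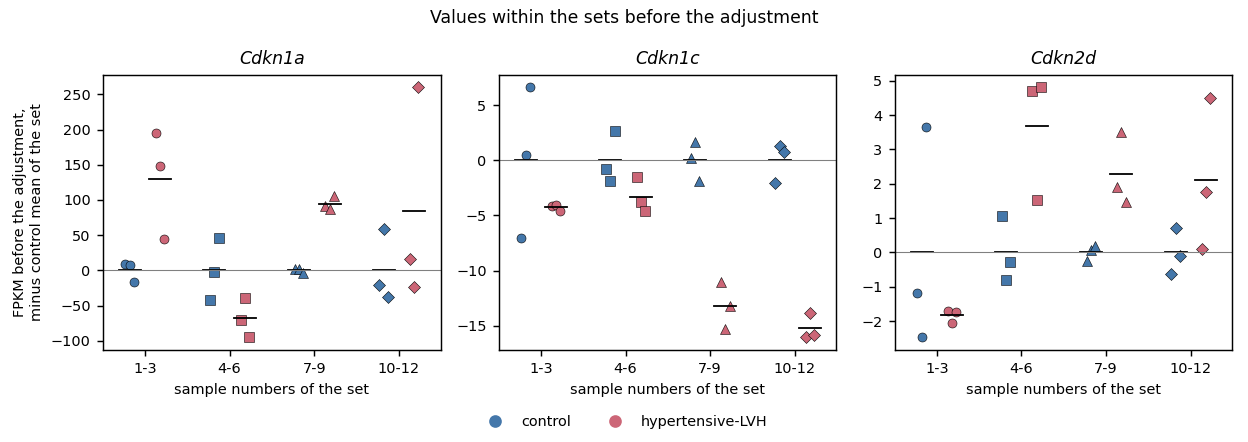
Values of Cdkn1a, Cdkn1c and Cdkn2d with the scaling of the sets undone, as FPKM minus the mean of the 3 controls of the same set (y axis), by set (x axis). Points are ventricles and short lines are group means. Cdkn1c was lower in hypertensive-LVH in 4 of 4 sets, with differences of -15.2 to -3.30 FPKM, whereas the difference of Cdkn1a was -68.3 FPKM in samples 4 to 6 and above 0 in the other sets.

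Promoter sequence is shown for Cdkn1a, the member that rose most, because p53 is its textbook activator and a list of p53 targets follows. RefSeq promoters (GRCm38.p6) matched 6 of the 10 genes by symbol, with 9 start sites in all, and 250 bases before each start were searched on both strands. Of all 32851 promoters, 7.13% held the p53 half-site, matched by its degenerate consensus, and 0.0639% held a full site, defined as 2 half-sites at most 13 bases apart. Among the 9 windows of the 10 genes, that before the upstream start of Cdkn1a held a full site, and the window of Cdkn2d held 1 half-site. In the first sequence capitals mark the 2 half-sites, which are 12 bases apart and lie between 73 and 42 bases before the start. The 10 bases directly after the second half-site match the half-site at 9 of 10 positions. They stayed in lower case because the search asked for a match at all positions. The capitals thus follow the search rule and do not tell which pair of half-sites p53 uses. In the second sequence, before the downstream start, capitals mark GGGCGG, the GC box bound by Sp1, which 32.7% of all promoters hold.
Cdkn1a, upstream start, chr17:29090729-29090978, plus strand: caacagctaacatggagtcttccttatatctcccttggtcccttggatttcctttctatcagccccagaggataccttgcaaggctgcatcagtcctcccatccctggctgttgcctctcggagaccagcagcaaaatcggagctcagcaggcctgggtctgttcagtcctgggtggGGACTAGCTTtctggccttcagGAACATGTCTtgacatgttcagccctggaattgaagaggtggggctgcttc
Cdkn1a, downstream start, chr17:29093519-29093768, plus strand: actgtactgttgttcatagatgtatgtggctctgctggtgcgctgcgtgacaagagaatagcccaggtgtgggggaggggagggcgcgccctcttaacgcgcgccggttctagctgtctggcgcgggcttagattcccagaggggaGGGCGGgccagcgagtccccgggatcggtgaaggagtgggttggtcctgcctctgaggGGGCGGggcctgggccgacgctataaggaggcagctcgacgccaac
GGGCGG also occurred in windows of Ccnd3, Cdkn1b, Cdkn2c and Cdkn2d. None of the 3 forms of the E2F site searched (TTTGGCGC, TTTCCCGC and TTTCGCGC) occurred in the windows of the 10 genes, and 1.53% of all promoters held at least 1 of them. These are matches of letters in short windows and say nothing of binding.

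Cdkn1b (p27), the third Cip/Kip gene, which holds cells in quiescence, had means of 17.8 ± 2.91 and 18.0 ± 2.01 adjusted FPKM. It lies on chromosome 6 at 134920401 to 134925513, plus strand. The lowest, median and highest values were 13.2, 17.7 and 22.8 in the hypertensive-LVH group and 14.4, 17.8 and 20.6 in the control group, and 6 hypertensive-LVH samples lay on each side of the control median. The log2 fold change was -0.02, with a 95% interval of -0.18 to 0.13 and a limma adjusted p of 0.826. Every hypertensive-LVH sample was above every control in samples 4 to 6 (means 19.9 and 15.7) and below every control in samples 7 to 9 (means 15.8 and 20.2), where 47.6% and 27% of all tested genes did not overlap either, and the interaction did not pass (adjusted p = 0.140).

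The makeup of the Cip/Kip RNA followed these values. Of the summed adjusted FPKM of the 3 genes, Cdkn1c held 4.99% ± 3.10 in the hypertensive-LVH group and 16.2% ± 6.86 in the control group. Cdkn1a held 82.6% ± 8.49 and 65.5% ± 12.6, and Cdkn1b 12.4% ± 5.81 and 18.3% ± 6.47 (SD, n = 12 each). The lowest, median and highest ratio of Cdkn1a to Cdkn1c were 6.67, 21.8 and 71.7 in hypertensive-LVH, and 1.97, 3.86 and 12.7 in control. The lowest hypertensive-LVH ratios, 6.67 and 6.74, and the highest control ratios, 12.7 and 11.6, all came from samples 4 to 6. These shares and ratios restate the values of the 3 genes and were not tested.

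Among the INK4 genes, Cdkn2d was the 1 that passed. It lies on chromosome 9 at 21288410 to 21291407, minus strand. The lowest, median and highest values were 10.2, 11.4 and 15.1 adjusted FPKM in the hypertensive-LVH group and 8.55, 10.2 and 13.7 in the control group. Of the hypertensive-LVH samples, 11 of 12 lay above the control median and 4 above the highest control. The means were 12.2 ± 1.80 and 10.3 ± 1.30, and the log2 fold change was 0.22 ± 0.07 (SE, 95% interval 0.08 to 0.37, limma adjusted p = 0.0175), below the DEG threshold. Within the sets the log2 differences were -0.05, 0.44, 0.27 and 0.23. The groups did not overlap in samples 4 to 6 and 7 to 9, as in 47.6% and 27% of all tested genes. The exact permutation test within the sets gave an adjusted p of 0.0475, and 0.131 on the values before the adjustment, where the mean difference was 1.57 FPKM. Without samples 4 to 6 the log2 fold change was 0.15 (limma adjusted p = 0.182) and the exact test within the sets gave an adjusted p of 0.286, and with quantile normalization the adjusted p was 0.0647.

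Cdkn2c (p18) had means of 8.14 ± 1.38 and 7.46 ± 1.17 adjusted FPKM, with ranges of 6.07 to 10.9 and 4.78 to 9.03. Its log2 fold change was 0.11, with a 95% interval of -0.06 to 0.29 (limma adjusted p = 0.322). Cdkn2b (p15), which TGF-beta induces in many cells, was the lowest of the 10 genes, at 0.484 ± 0.222 and 0.426 ± 0.177 adjusted FPKM. Its log2 fold change was 0.05, with a 95% interval of -0.11 to 0.22 (limma adjusted p = 0.621) on a scale that understates changes of low genes. In samples 4 to 6 the Cdkn2b values were 0.559, 0.773 and 0.813 against 0.286, 0.0458 and 0.259 in the controls, without overlap as in 47.6% of all genes, while the groups overlapped in the other 3 sets. The interaction of group and set for Cdkn2b had an adjusted p of 0.0517. Cdkn2c and Cdkn2b lie on chromosome 4 at 109660876 to 109667189 and 89306299 to 89311039, both on the minus strand.

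**Figure D3:**
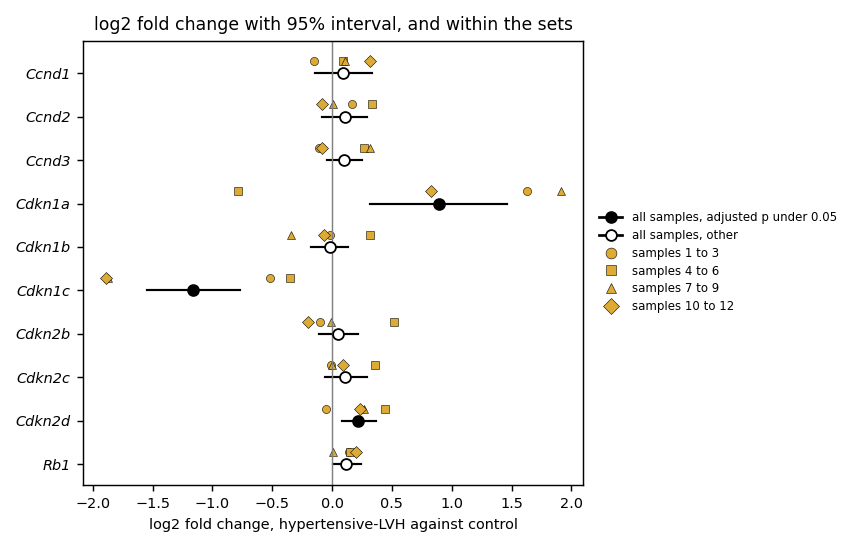
log2 fold change of each gene, hypertensive-LVH against control (x axis), from all 24 samples (circles, filled where the adjusted p is under 0.05) with 95% intervals (lines), and the log2 difference within each set (yellow symbols). Cdkn1c is left of 0 in all 4 sets, whereas Cdkn1a ranges from -0.79 to 1.91.

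The D-type cyclins did not pass the test in either direction. Ccnd3, the highest of the 3, had a lowest, median and highest value of 38.4, 54.4 and 62.5 adjusted FPKM in the hypertensive-LVH group and 38.7, 49.8 and 58.0 in the control group. Its log2 fold change was 0.10, with a 95% interval of -0.04 to 0.25 (limma adjusted p = 0.275). Ccnd2 ran from 34.5 through a median of 43.1 to 53 in hypertensive-LVH and from 24 through 39.7 to 56 in control, where 1 sample held the lowest and another the highest value of all 24. Its log2 fold change was 0.11, with a 95% interval of -0.08 to 0.29 (limma adjusted p = 0.364). Ccnd1, a cyclin that growth factor signals induce, ran from 18.9 through 25 to 43 and from 20 through 23.6 to 33.3. Its log2 fold change was 0.09, with a 95% interval of -0.14 to 0.33 (limma adjusted p = 0.559). The intervals leave room for changes of up to 0.33 on the log2 scale.

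The balance among the 3 cyclins was close in the groups. Ccnd3 made up 43.3% ± 2.51 of their summed adjusted FPKM in the hypertensive-LVH group and 43.2% ± 3.50 in the control group, Ccnd2 35% ± 2.89 and 35% ± 4.81, and Ccnd1 21.7% ± 2.90 and 21.8% ± 3.01. Within the sets, Ccnd2 in samples 4 to 6 (means 46.5 and 36.6) and Ccnd3 in samples 7 to 9 (means 56.8 and 45.4) had groups that did not overlap, both higher in hypertensive-LVH, beside 47.6% and 27% of all tested genes in those sets. Ccnd1 overlapped in all 4 sets. Ccnd1 lies on chromosome 7 at 144929931 to 144939925 on the minus strand, Ccnd2 on chromosome 6 at 127125162 to 127152193 on the minus strand, and Ccnd3 on chromosome 17 at 47505051 to 47599691 on the plus strand.

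Rb1, the target of the D-type cyclin kinases, came close to the threshold. It lies on chromosome 14 at 73183673 to 73325822, minus strand. The lowest, median and highest values were 10.1, 11.8 and 14.9 adjusted FPKM in the hypertensive-LVH group and 8.80, 11.1 and 12.0 in the control group, and 10 of 12 hypertensive-LVH samples lay above the control median. The means were 12.1 ± 1.27 and 11.0 ± 0.925, higher in hypertensive-LVH in 4 of 4 sets. The log2 fold change was 0.12 ± 0.05 (SE, 95% interval 0.01 to 0.24), with a limma adjusted p of 0.0755, an adjusted p of 0.0896 in the exact permutation test within the sets, and of 0.053 in that test before the adjustment of the values.

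How the genes varied beside each other was described after the mean of each group in each set was removed, over 24 samples that share the adjustment. The residual Pearson r on the log2 scale was 0.83 for Ccnd1 with Ccnd3, 0.73 for Cdkn1b with Rb1 and 0.56 for Cdkn2b with Cdkn2c. The lowest were -0.57 for Cdkn1c with Rb1 and -0.56 for Cdkn1a with Cdkn2c. Among 11458 genes with a mean of at least 1, those most like Ccnd1 by this measure were Ift122 (r = 0.94), Tmem255b (0.91) and Ephb1 (0.89). Those most like Ccnd2 were Daam1 (0.92), Fam168a (0.91) and Efcab14 (0.86), and those most like Cdkn1a were Furin (0.84), Adipor2 (0.84) and Plxna2 (0.80). Pum2 and Stag2 were among the genes most like Rb1, both at 0.97. Such values are descriptions and carry no test.

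The kinases and partner cyclins around the 10 genes were then counted from lists. For this and the lists below, 20.9% of all tested genes rose and 12.6% fell. Without samples 4 to 6, 1173 of the 14026 rose and 1629 fell. Of 11 tested genes of G1 and S phase kinases and their partner cyclins, 4 rose, 1 fell and 6 did not pass, and the median log2 fold change was 0.08 beside 0.05 for all tested genes. Cdk4 and Cdk6, the kinases that D-type cyclins activate and INK4 proteins block, were named after their values were seen, and they had means of 39.5 and 39.8 (adjusted p = 0.848) and of 3.62 and 3.39 adjusted FPKM (adjusted p = 0.292, both limma) in hypertensive-LVH and control. Ccna2, the cyclin of S phase and G2, rose from 1.15 to 4.75 adjusted FPKM (log2 fold change 1.43 ± 0.21 SE, limma adjusted p = 2.11e-05). Cdk1, the mitotic kinase, rose by 0.68 and Ccne1, a cyclin of the G1/S transition, by 0.18 on the log2 scale. Ccnh, the cyclin of the CDK-activating kinase, fell by 0.16 (adjusted p = 0.036).

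Downstream of Rb1, 9 of 19 pocket proteins, E2F and DREAM factors rose, 2 fell and 8 did not pass, with a median log2 fold change of 0.14. Foxm1, a transcription factor of G2 and mitosis, rose by 1.05, E2f8, a repressor among the E2F factors, by 0.51, and E2f2, an activator, by 0.37 on the log2 scale. That scale understates the change of E2f2, which lay at 0.632 adjusted FPKM in hypertensive-LVH and 0.257 in control. E2f6, a repressor that does not bind pocket proteins, fell by 0.14. Of the close relatives of Rb1, Rbl1 (p107) rose by 0.31 (limma adjusted p = 0.00675), while Rbl2 (p130) had means of 14.4 and 14.3 adjusted FPKM (adjusted p = 0.97). Both were named after their values were seen. Without samples 4 to 6, 5 of the 19 rose and 1 fell.

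Of 16 target genes of E2F, 14 rose, 0 fell and 2 did not pass, and the median log2 fold change was 0.40 beside 0.05 for all genes. Uhrf1, which keeps DNA methylation through replication, rose by 0.75, Tk1, the thymidine kinase of S phase, by 0.70 and Gins2, a part of the replicative helicase, by 0.64 on the log2 scale. The levels were low, at 2.21 against 0.891 adjusted FPKM for Uhrf1, 4.49 against 2.38 for Tk1 and 1.5 against 0.59 for Gins2. At such levels the log2 scale used here understates changes. Within the sets the numbers of the 16 that were higher in hypertensive-LVH were 12, 16, 15 and 16 in the order of the sets. Without samples 4 to 6, 11 of the 16 rose, and with quantile normalization 10 did. The rise stood beside D-type cyclins that did not pass and Cdkn1a and Cdkn1c that changed in opposite directions. A list of 6 markers of dividing cells moved with it, with all 6 higher and a summed level of 10.5 to 25.2 in hypertensive-LVH and 5.04 to 10.8 adjusted FPKM in control.

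Of 15 targets of p53 other than Cdkn1a, 2 rose, 1 fell and 12 did not pass, with a median log2 fold change of 0.12. Gadd45a, a stress gene, fell by 0.80 (limma adjusted p = 0.000993), from 9.67 to 5.23 adjusted FPKM. Phlda3, an inhibitor of Akt, rose by 0.59 (adjusted p = 0.0208) and Pmaip1 (Noxa), a promoter of cell death, by 0.21 (adjusted p = 0.0361). Mdm2, the main p53 antagonist, named after its values were seen, had means of 25.7 and 25.6 adjusted FPKM. In the order of the sets, 4, 11, 4 and 10 of the 15 genes were higher in hypertensive-LVH, with median log2 differences of -0.02, 0.38, -0.13 and 0.06. Over all tested genes the medians were -0.007, 0.175, -0.022 and 0.026 in the same order. The part of p53 in the change of Cdkn1a was not tested. Without samples 4 to 6, 0 of the 15 rose and 1 fell in limma.

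Of 14 genes for the degradation of D-type cyclins and Cip/Kip proteins, 7 rose, 1 fell and 6 did not pass, with a median log2 fold change of 0.11. Cdc20, an activator of the anaphase-promoting complex, rose by 0.93, Cks1b, the cofactor by which Skp2 recognizes p27, by 0.62, and Ambra1, the receptor that marks D-type cyclins for degradation, by 0.21 on the log2 scale. In the order of the sets the log2 differences of Ambra1 were 0.15, 0.53, 0.11 and 0.06. Rbx1, the RING protein of cullin ligases, fell by 0.15. Leaving out samples 4 to 6, 2 rose and 1 fell. RNA levels say nothing of protein turnover.

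**Figure D4:**
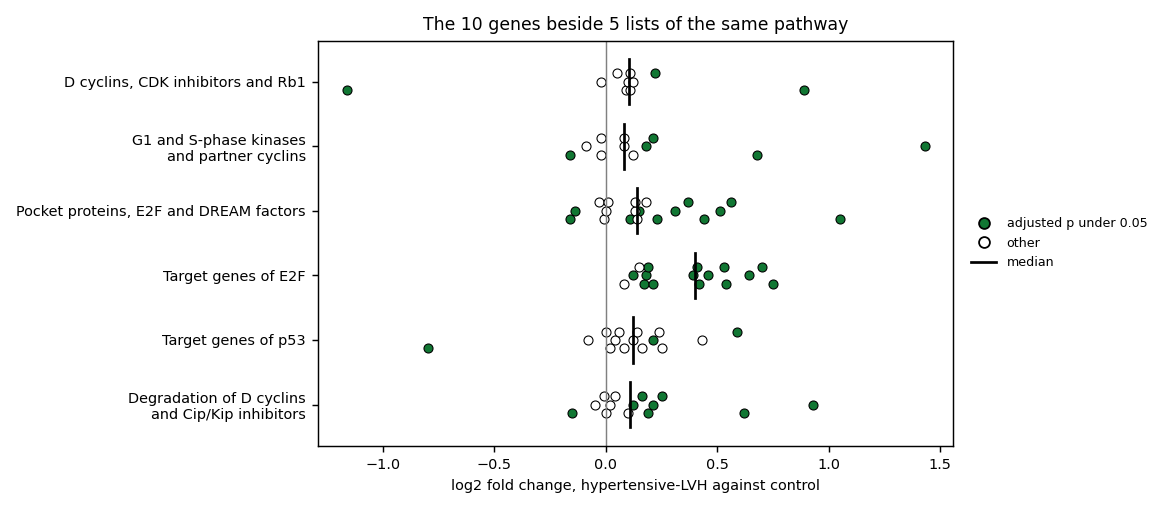
log2 fold change, hypertensive-LVH against control (x axis), of the 10 genes and of 5 lists around them. Each point is 1 gene, filled where the adjusted p is under 0.05, and the line is the median of the list. The median of the E2F targets is 0.40 and the other lists have medians between 0.08 and 0.14.

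Cell type markers moved with the groups in the same tissue. The summed level of 8 cardiomyocyte markers was 31664 to 45190 adjusted FPKM in hypertensive-LVH and 41501 to 51967 in control, with 4 markers lower and 1 higher, and no marker was at 0 throughout. All 8 macrophage markers were higher (sums 199 to 550 and 137 to 287), as were 4 of 8 fibroblast markers (708 to 2639 and 25.1 to 1017) and all 5 red blood cell markers (779 to 6443 and 56.2 to 2949). With samples 4 to 6 left out, 1 of 8 fibroblast markers was higher (708 to 1906 and 842 to 1017), as was 1 of 8 macrophage markers (199 to 525 and 160 to 287), while all 5 red blood cell markers and all 6 markers of dividing cells still were. Of the cardiomyocyte markers, 3 were then lower and 1 higher. Endothelial cells had 1 marker higher and 1 lower of 8 (395 to 609 and 419 to 521). Of the other lists, 2 of 7 smooth muscle and pericyte markers were higher and 1 lower (286 to 476 and 219 to 391). Among 5 tested lymphocyte markers 1 was higher and 1 lower (0.916 to 4.09 and 1.38 to 2.94). Atrial markers passed in 0 of 3, with widely spread sums (-170 to 2303 and -157 to 3153). Their mean sums in hypertensive-LVH and control were 94.6 and 961 in samples 1 to 3 and 850 and -79.9 in samples 4 to 6. Whether samples differed in atrial tissue was not tested. The higher calls of the smooth muscle and lymphocyte lists were lost in limma once samples 4 to 6 were left out, and 1 marker of each was then lower. Fewer cells of a type and less RNA per cell cannot be told apart in bulk tissue, and the part of cell makeup in the changes of Cdkn1a, Cdkn1c and Cdkn2d was not tested.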

How the data were processed

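RNA of 24 left ventricles was selected with oligo(dT), sequenced and given by the authors as FPKM. The deposited values are treated as a score, since they are FPKM adjusted in 4 sets, a step not given in the sources used here, and 0.766% are negative. Sets were found from values tied between samples (at least 100 genes). The submitters' processing notes list Bowtie2, HISAT and RSEM, and the build is not given in the sources used here. The paper had 16 samples per group, of which 4 per group were not analysed here. Groups came from the sample labels, which do not say whether samples with 1 number share a day or cage. Sums of values were 460715 to 515185 (hypertensive-LVH) and 482319 to 567727 (control). Depth is unknown, so no counting error could be given.

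Negative values were set to 0 for log2(value + 1). limma 3.58.1 in R 4.3.3 (with intensity trend) tested 14026 genes with a mean of at least 0.1, although plain FPKM had been planned for. Within-set tests ran in Python 3.11.15 (scipy 1.17.1, numpy 2.4.6, pandas 2.3.3). The smallest p of the exact test is 1.25e-05. Scale factors were recovered from steps of 0.01 FPKM for 92.2% of genes. All tests were two-sided and were checked on simulated data. The 10 genes and all lists were chosen with earlier results of these data known. Named list genes are the 3 with the smallest p and the 1 with the smallest p against the list's direction, unless said otherwise. Skp1 was matched as Skp1a, and Bmp10 was not used. Of the genes most like Rb1, 1 is not reported here.

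Alternatives changed the scaling (quantile normalization or median ratios), the filter (none, or at least 1), the pseudocount (0.1) and the test (rank-sum test of Wilcoxon, or limma without trend), added the replicate number as a block or the set as a term, or left out sets or single samples. For the pathway lists, leaving out sets and quantile normalization, and for the marker lists leaving out samples 4 to 6, were added after seeing the data.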

Additional observations from a re-analysis of the deposited data

Results flagged for a closer look

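The group difference of 2 genes varied between the sets of samples by limma's test of the interaction of group and set. Cdkn1a had an adjusted p of 0.0164, with log2 differences of 1.63, -0.79, 1.91 and 0.83 in samples 1 to 3, 4 to 6, 7 to 9 and 10 to 12. Cdkn1c had an adjusted p of 0.0108, with log2 differences of -0.52, -0.35, -1.87 and -1.89 in the same order. For Cdkn1a the difference changed sign in 1 set, and for Cdkn1c it changed in size alone. No source used here says what the sets are, and the cause was not tested.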

How the results depend on the processing

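Cdkn1c stayed lower and past the threshold under all 13 alternatives that kept whole sets or left one out (log2 fold change -1.43 to -0.91) and in all 24 fits without 1 sample (-1.23 to -1.05). Cdkn1a stayed higher (0.55 to 1.45), and lost its call in 3 of the 13, with an adjusted p of 0.076 with the replicate number as a block, 0.144 without samples 1 to 3 and 0.204 without samples 7 to 9. The number of DEGs among the 10 genes was then 1 in each of these 3, and the number of genes past the adjusted p was 1 without samples 7 to 9. Cdkn2d lost its call in 4 of the 13, with an adjusted p of 0.0647 with quantile normalization, 0.182 without samples 4 to 6, 0.0817 without samples 7 to 9 and 0.0577 without samples 10 to 12. The exact test within the sets called 1 gene in place of 2 before the adjustment, without samples 7 to 9 and without samples 10 to 12, and the interaction test 1 in place of 2 on the values as deposited. In each of these settings the 1 gene left was Cdkn1c. Leaving out 1 sample gave 3 to 4 genes past the adjusted p, 2 to 2 DEGs, the added gene being Rb1 without hypertensive-LVH sample 7 or 10. Values near 0 changed sign for Cdkn2b (-0.03 with quantile normalization, -0.10 without samples 4 to 6) and Cdkn1b (0.08 without samples 7 to 9, and -0.06 to 0.01 in fits without 1 sample). Cdkn2b was not tested with a mean of at least 1. The cause of these changes was not tested.

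Correlation cannot decide whether sample numbers pair the groups, because the values had been shifted and scaled by set. The correlation of same-numbered samples was -0.56 to -0.00, with 0 of 12 over 0.1 and 0 best with its own number. The replicate block left 1586 genes higher and 1238 lower in place of 2928 and 1769, and changed no call among the 10 genes other than that of Cdkn1a.

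Of list genes that rose, the G1 and S phase list had 2 in place of 4 without samples 10 to 12 and with quantile normalization. The pocket protein list had 5 in place of 9 without samples 4 to 6. The p53 list had 0 in place of 2 without samples 4 to 6 and 1 with quantile normalization. The degradation list had 2 in place of 7 without samples 4 to 6, 4 without samples 10 to 12 and 3 with quantile normalization. Over all genes, calls without samples 4 to 6 were 1173 higher and 1629 lower, of which 322 and 230 were DEGs in place of 634 and 197, and a pseudocount of 0.1 gave 1148 and 341 DEGs. Read depth is unknown, so the precision of Cdkn2b, below 1 adjusted FPKM, could not be set.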
